A study of Mus musculus with 12 samples.

Results

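The genes described here are the 5 subunit genes of the transcription factor NF-kB (Nfkb1, Nfkb2, Rel, Rela and Relb), 3 TRAF adaptor genes (Traf1, Traf2 and Traf3) and 2 kinase genes that act upstream of or beside NF-kB (Map3k14 and Map3k8). They were taken by symbol from the count table and make up 10 of its 54532 genes, and all 10 passed the expression filter. RNA was sequenced from eosinophils sorted from the spleen as SSChigh4get+ cells of IL-5tg_4get/C57BL/6 mice and kept in culture for 4 h. The 4 groups received 5 µg/mL anti-Siglec-F together with 10 ng/mL IL-33, 10 ng/mL IL-33 without that antibody, 5 µg/mL anti-Siglec-F alone, or a rat isotype control antibody, with 3 libraries each. Siglec-F is an inhibitory sialic acid-binding receptor of mouse eosinophils and IL-33 is an alarmin cytokine. All 4 groups share the IL-5 transgene, which gives the mice a systemic excess of eosinophils, and the 4get reporter, which marks cells with an active Il4 locus by fluorescence, so no group shows cells without them. The labels do not say whether the cells given IL-33 also received the isotype antibody. Nor do they tell whether libraries of 1 group stem from different animals or cultures, so every p-value reflects the spread among these 12 libraries only, and that spread may be technical.

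NF-kB proteins bind DNA as dimers and are held in the cytoplasm by IkB proteins until a receptor signal removes these. In the canonical branch, which the IL-33 receptor feeds through MyD88 and TRAF6, the IKK complex has IkB degraded and frees dimers that hold Rela or Rel. In the non-canonical branch, TRAF3 and TRAF2 normally keep the kinase NIK, the product of Map3k14, at a low level, and NIK that escapes them has the Nfkb2 precursor cut to the form that pairs with Relb. Several of these genes are themselves known targets of NF-kB.

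Total counts ran from 11686603 to 17137988 per library. In the combined group, libraries 2 and 3 differed from all others, with 15555 and 29990 genes detected against 19138 to 24485 in the other 10 libraries, and with 3.45% and 3.99% of counts in ribosomal protein genes against 1.69% to 2.71%. The median SD of log2 CPM (counts relative to the library total, after TMM scaling) over 9178 genes was 0.34 in the combined group, 0.21 with IL-33, 0.18 with anti-Siglec-F and 0.16 with isotype. The 6 eosinophil markers (Siglecf, Ccr3, Il5ra, Epx, Prg2 and Prg3) were present in every library. They summed to 3559 to 8031 CPM with both stimuli and 2993 to 4652 CPM with IL-33. The sums were 3793 to 6293 CPM with anti-Siglec-F and 3722 to 6245 CPM with isotype. With IL-33 all 6 had a negative log2 fold change against isotype (-0.51 to -0.26, median -0.36). With both stimuli 3 of the 6 had a positive one (median -0.07), and none was called in either comparison. The 10 monocyte and macrophage markers summed to 1054 to 1462 CPM with both stimuli, 885 to 1177 CPM with IL-33, 613 to 808 CPM with anti-Siglec-F and 533 to 609 CPM with isotype. Csf1r made up most of these sums, at 944 to 1066 CPM with both stimuli, 790 to 945 CPM with IL-33, 519 to 732 CPM with anti-Siglec-F and 407 to 467 CPM with isotype. Of these 10 markers, 9 could be tested, and Csf1r and Spic were the 2 called higher both with IL-33 and with both stimuli than with isotype. The markers did not go one way: 6 of the 9 had a positive log2 fold change with both stimuli (median 0.55) and 3 of the 9 with IL-33 (median -0.29), each against isotype, and Cx3cr1, Ly6c2, C1qa, C1qb and C1qc were among those below 0 with IL-33. The 8 dendritic cell markers summed to 81.5 to 141 CPM with both stimuli, 46.0 to 89.6 CPM with IL-33, 38.8 to 55.4 CPM with anti-Siglec-F and 32.8 to 43.8 CPM with isotype, and 1 of the 5 tested (Batf3) was called. Batf3 averaged 87.0 CPM with both stimuli, 41.4 with IL-33, 25.4 with anti-Siglec-F and 16.1 with isotype. Ccr7 averaged 14.9, 18.3, 15.3 and 16.1 CPM in the same order. Against isotype, 3 of the 5 had a positive log2 fold change with both stimuli (median 0.25) and all 5 with IL-33 (median 0.85). The macrophage gene Cd163 lay between 0 and 0.613 CPM and the dendritic cell gene Clec9a between 0 and 0.944 CPM in all 12 libraries. No marker was called in the lists for neutrophils, B and plasma cells, T cells, NK cells and ILC2, basophils and mast cells, erythroid cells, platelets or stroma in either comparison with isotype. The 9 neutrophil markers summed to 788 to 1562 CPM with both stimuli and 456 to 1386 CPM with IL-33. Their sums were 982 to 1999 CPM with anti-Siglec-F and 869 to 1997 CPM with isotype. The 7 B and plasma cell markers summed to 305 to 517 CPM with both stimuli and 323 to 732 CPM with IL-33. With anti-Siglec-F and isotype their sums were 332 to 502 CPM and 375 to 657 CPM. The 10 markers of T cells, NK cells and ILC2 summed to 102 CPM in IL-33 library 2 and to 20.3 to 46.6 CPM in the other 11 libraries. The part of other cells in the results on the NF-kB genes was not tested. In bulk libraries such as these, fewer cells of a type and less RNA per cell cannot be told apart.

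Both precursor and partner of the non-canonical dimer, Nfkb2 and Relb, were several-fold higher in all 6 libraries that had received IL-33 than in the 6 that had not. Nfkb2 (ENSMUSG00000025225, chromosome 19, 46304737 to 46312090, plus strand, mm10) encodes the p100 precursor and its processed form p52. It stood at 568, 331 and 547 CPM in libraries 1, 2 and 3 with both stimuli, 532, 461 and 346 CPM with IL-33, 91.0, 98.8 and 104.6 CPM with anti-Siglec-F and 98.8, 104 and 106 CPM with isotype. All 6 libraries with IL-33 present, from 331 CPM up, were above the 6 without it, which reached at most 106 CPM, and the 2 groups without IL-33 overlapped. Against isotype, its log2 fold change was 2.23 ± 0.21 (SE; edgeR adjusted p = 6.18e-05) with both stimuli and 2.12 ± 0.21 (1.96e-04) with IL-33, and against anti-Siglec-F it was 2.30 ± 0.22 (1.37e-04) with both stimuli. The exons of Nfkb2 share 299 of their 4584 bases (6.52%) with Psd and 531 bases with AC114539.1, both on the opposite strand in the GENCODE M21 annotation. The authors give Nfkb2 a length of 3289 bases, so their counts rest on another gene model than these 4584 bases. How much of the overlap lies in the counted bases is not known. The strand setting of the counting is not given in the sources used here, so reads in shared bases cannot be told apart. Psd had 280 to 629 counts with both stimuli, 433 to 799 with IL-33, 132 to 169 with anti-Siglec-F and 142 to 251 with isotype, where Nfkb2 had 3934 to 8037 with both stimuli, 4958 to 8141 with IL-33, 1230 to 1567 with anti-Siglec-F and 1351 to 1514 with isotype.

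The sequences around the starts of Nfkb2 are shown because this gene had 3 annotated starts and matches to the kB consensus, the 10-base pattern that NF-kB dimers bind, near each of them. RefSeq promoter windows (GRCm38.p6; 250 bases before to 50 bases after an annotated start, 5′ to 3′ on the strand of the gene) were given for 7 of the 10 genes. Nfkb1, Relb and Map3k8 are named only. The kB consensus was searched on both strands and its matches, merged where they overlap, are in capitals. Below are the window of the first Nfkb2 start (chr19:46304487-46304786, plus strand) and that of the second (chr19:46305445-46305744, plus strand); the window of the third overlaps the second.
Nfkb2 first start: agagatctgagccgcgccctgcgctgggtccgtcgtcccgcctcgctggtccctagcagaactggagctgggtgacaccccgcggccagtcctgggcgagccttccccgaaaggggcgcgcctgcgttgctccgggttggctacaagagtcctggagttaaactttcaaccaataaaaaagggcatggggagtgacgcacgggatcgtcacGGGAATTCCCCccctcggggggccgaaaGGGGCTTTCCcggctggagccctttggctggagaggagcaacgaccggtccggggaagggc
Nfkb2 second start: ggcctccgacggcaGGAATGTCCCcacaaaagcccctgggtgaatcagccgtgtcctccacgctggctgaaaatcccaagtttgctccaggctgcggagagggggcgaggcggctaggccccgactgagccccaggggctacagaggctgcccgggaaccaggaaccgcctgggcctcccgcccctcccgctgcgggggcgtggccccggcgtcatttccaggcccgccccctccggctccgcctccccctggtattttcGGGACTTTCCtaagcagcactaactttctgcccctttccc
In the first window the capitals cover GGGAATTCCC from 39 to 30 bases before the start, which reads the same on both strands, an overlapping match on the minus strand that ends 29 bases before the start, and GGGGCTTTCC from 11 to 2 bases before it. In the second window they cover GGGACATTCC on the minus strand, which the window shows as its reverse complement, from 236 to 227 bases before the start, and GGGACTTTCC from base 11 to base 20 after it. This last site also lies in the third window. A match occurred in 5 of the 9 windows of these genes, which belong to 3 of the 7 genes with a window (Nfkb2, Rel and Traf3), against 4.51% of all 32851 windows in the table and 5.14% of its 27025 genes. GGGAATTCCC occurred in 13 of all windows (0.0396%) and GGGACTTTCC in 51 (0.155%). These are matches of letters only, and binding was not measured here.

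Relb (ENSMUSG00000002983, chromosome 7, 19606217 to 19629438, minus strand) encodes the partner that the processed Nfkb2 product binds. It stood at 201, 239 and 268 CPM in libraries 1, 2 and 3 with both stimuli, 209, 221 and 167 CPM with IL-33, 48.3, 48.1 and 60.3 CPM with anti-Siglec-F and 44.3, 54.2 and 49.4 CPM with isotype. As for Nfkb2, the 6 libraries with IL-33 lay apart from the 6 without it. Relb was higher by a log2 fold change of 2.26 ± 0.17 (SE; edgeR adjusted p = 2.66e-05) with both stimuli and 2.01 ± 0.17 (1.04e-04) with IL-33, each against isotype, and 2.18 ± 0.17 (8.25e-05) with both stimuli against anti-Siglec-F. By p-value it ranked 2, 2 and 1 among the 14547 tested genes in these 3 comparisons. Libraries 2 and 3 of the combined group, which had lower Nfkb2 than library 1, had higher Relb: the ratio of library 2 to library 1 was 0.582 for Nfkb2 and 1.19 for Relb.

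**Figure D1:**
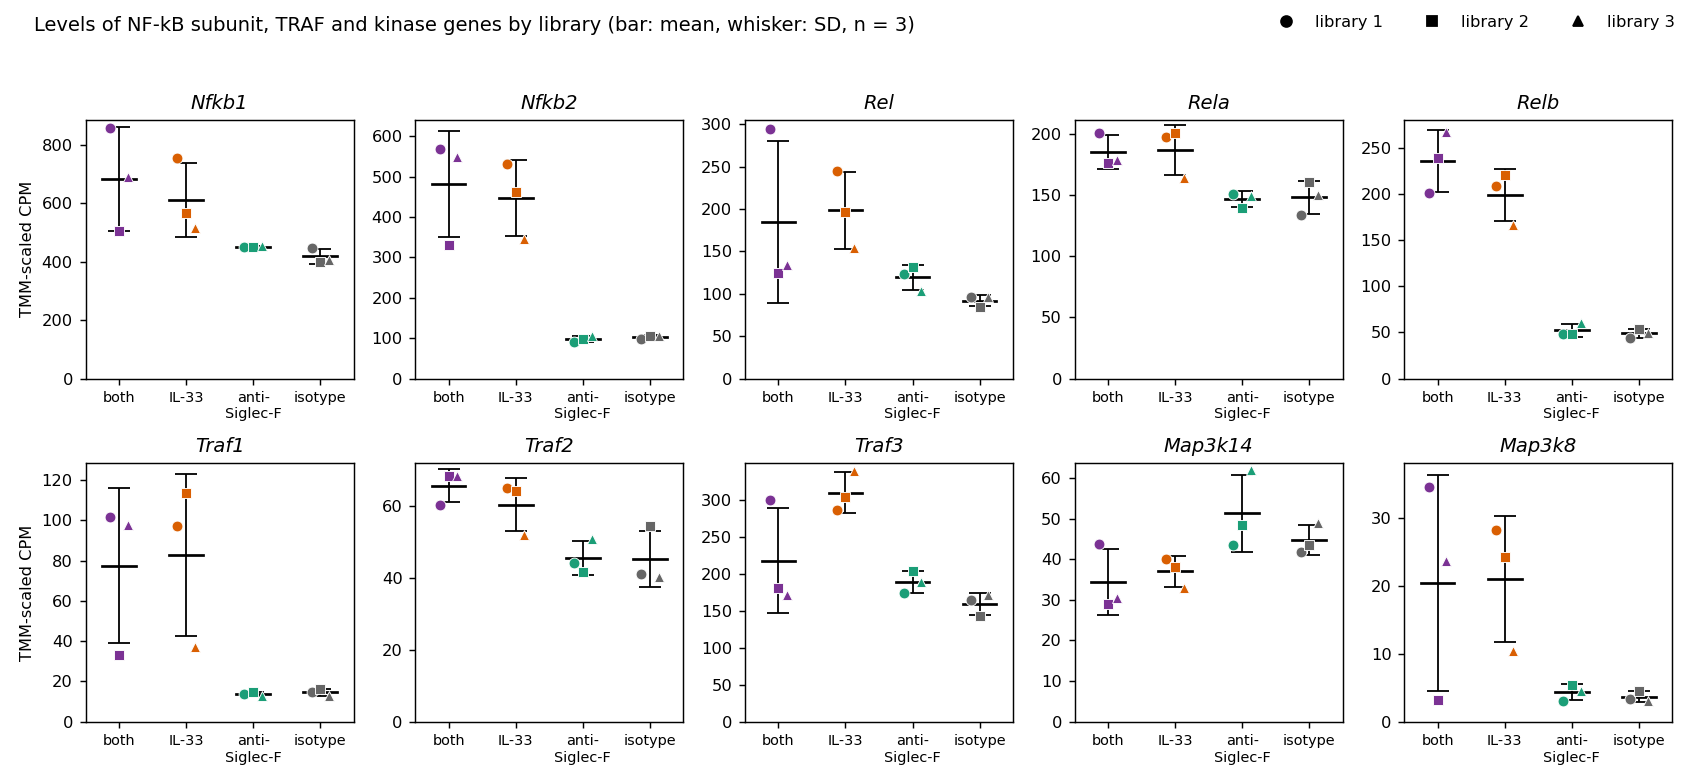
Level of each of the 10 genes in TMM-scaled CPM in the 12 libraries, with groups from left to right as both stimuli, IL-33, anti-Siglec-F and isotype; points are libraries (their shape gives the number), horizontal bars group means and whiskers the SD (n = 3). Nfkb2 and Relb separate the libraries with IL-33 from those without, while Map3k8 in library 2 of the combined group, at 3.20 CPM, lies among the isotype libraries.

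The canonical subunits differed less. Rela (ENSMUSG00000024927, chromosome 19, 5637483 to 5648130, plus strand), the main activating subunit of the canonical dimer, stood at 201, 176 and 179 CPM in libraries 1, 2 and 3 with both stimuli, 197, 200 and 164 CPM with IL-33, 151, 140 and 149 CPM with anti-Siglec-F and 133, 160 and 150 CPM with isotype. Each library with IL-33 present was above each library without it. Its log2 fold changes of 0.32 ± 0.14 with both stimuli (edgeR adjusted p = 0.153) and 0.34 ± 0.14 with IL-33 (0.276), each against isotype, did not pass the test. Nfkb1 (ENSMUSG00000028163, chromosome 3, 135584655 to 135691547, minus strand) encodes the p105 precursor and its product p50, the usual partner of Rela. Its levels were 859, 505 and 689 CPM with both stimuli, 754, 567 and 515 CPM with IL-33, 451, 451 and 453 CPM with anti-Siglec-F and 448, 401 and 407 CPM with isotype. No library with IL-33 overlapped those without it, but the libraries with IL-33 spread over a range of 505 to 859 CPM. Nfkb1 had a log2 fold change of 0.71 ± 0.20 with both stimuli against isotype (edgeR adjusted p = 0.0380), which passed the test, and 0.55 ± 0.20 with IL-33 against isotype (0.198), which did not. In the comparison of both stimuli with isotype the call for Nfkb1 held without library 2 of the combined group and was lost without any one of the other 5 libraries, with edgeR adjusted p between 0.0757 and 0.130.

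Rel (ENSMUSG00000020275, chromosome 11, 23736847 to 23770970, minus strand) encodes c-Rel, a subunit best known from lymphocytes. It is shown with its promoter window (chr11:23770920-23771219, minus strand), where a match and an overlapping one lie between 92 and 82 bases before the start.
Rel: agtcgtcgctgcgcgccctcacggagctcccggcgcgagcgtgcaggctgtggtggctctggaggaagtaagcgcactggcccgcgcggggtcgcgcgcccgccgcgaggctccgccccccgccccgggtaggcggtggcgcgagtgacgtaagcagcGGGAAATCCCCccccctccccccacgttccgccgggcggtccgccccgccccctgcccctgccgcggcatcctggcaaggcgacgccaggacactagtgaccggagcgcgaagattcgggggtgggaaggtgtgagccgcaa
Rel stood at 295, 125 and 134 CPM in libraries 1, 2 and 3 with both stimuli, 245, 197 and 154 CPM with IL-33, 123, 132 and 104 CPM with anti-Siglec-F and 95.8, 84.1 and 96.0 CPM with isotype. The 3 libraries with both stimuli overlapped those with anti-Siglec-F and were all above those with isotype, and library 1 was far above libraries 2 and 3. Against isotype its log2 fold change was 1.00 ± 0.28 (edgeR adjusted p = 0.0391) with both stimuli and 1.11 ± 0.28 (0.0616) with IL-33. With both stimuli against isotype the call was lost without library 1 of the combined group, where the value was 0.48 (0.0832), and without isotype library 1, 2 or 3 (0.1099 to 0.1144). For IL-33 against isotype Rel passed without IL-33 library 3 (1.30, edgeR adjusted p = 0.0325) and in no other fit that left out 1 library. With all libraries kept, Rel passed by DESeq2 (adjusted p = 0.00506) and limma voom (adjusted p = 2.71e-04). It also passed with only the groups compared (edgeR adjusted p = 0.0137), but not with DESeq2 size factors or upper-quartile scaling.

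Of the 3 TRAF genes, Traf1 had the largest fold changes with IL-33 and with both stimuli against isotype. Traf1 (ENSMUSG00000026875, chromosome 2, 34941750 to 34961772, minus strand) encodes an adaptor without a RING domain that joins TRAF2 at TNF family receptors. Its RefSeq window (chr2:34961723-34962022, minus strand) is printed for contrast, as the window of a strongly changed gene that held no match to the kB consensus.
Traf1: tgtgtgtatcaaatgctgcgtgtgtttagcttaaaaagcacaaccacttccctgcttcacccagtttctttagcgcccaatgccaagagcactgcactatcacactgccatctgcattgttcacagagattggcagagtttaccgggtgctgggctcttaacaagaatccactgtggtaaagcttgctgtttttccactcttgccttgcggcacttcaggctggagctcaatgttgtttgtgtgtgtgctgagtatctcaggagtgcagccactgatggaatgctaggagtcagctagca
Traf1 stood at 102, 33.2 and 97.5 CPM in libraries 1, 2 and 3 with both stimuli, 97.2, 114 and 37.4 CPM with IL-33, 14.02, 14.8 and 12.5 CPM with anti-Siglec-F and 14.6, 16.3 and 12.9 CPM with isotype. The lowest library with IL-33 present was above the highest without it, and 1 library of each IL-33 group was far below the other two. Its log2 fold change reached 2.41 ± 0.41 (SE; edgeR adjusted p = 0.00301) with both stimuli and 2.50 ± 0.42 (0.00574) with IL-33, each against isotype, and 2.49 ± 0.42 (0.00590) with both stimuli against anti-Siglec-F.

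Traf3 (ENSMUSG00000021277, chromosome 12, 111166370 to 111267153, plus strand) encodes the adaptor that brings NIK to its degradation, and it was the only one of the 10 genes with a nominal difference between both stimuli and IL-33. Its window (chr12:111166120-111166419, plus strand) held 1 match, from 10 to 1 bases before the start.
Traf3: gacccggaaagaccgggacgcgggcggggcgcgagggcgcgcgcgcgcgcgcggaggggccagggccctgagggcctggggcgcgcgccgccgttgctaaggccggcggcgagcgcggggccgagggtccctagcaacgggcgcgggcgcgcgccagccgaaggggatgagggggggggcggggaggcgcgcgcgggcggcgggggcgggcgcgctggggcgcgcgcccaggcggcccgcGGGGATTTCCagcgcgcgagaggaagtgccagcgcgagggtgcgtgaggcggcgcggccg
Traf3 stood at 300, 182 and 172 CPM in libraries 1, 2 and 3 with both stimuli, 286, 304 and 340 CPM with IL-33, 174, 204 and 190 CPM with anti-Siglec-F and 165, 142 and 171 CPM with isotype. The 3 libraries with IL-33 were apart from those with anti-Siglec-F or isotype, and in the combined group library 1 lay within the IL-33 range while libraries 2 and 3 lay within or below the anti-Siglec-F range. Traf3 was 1.94-fold higher with IL-33 than with isotype (log2 fold change 0.96 ± 0.20, edgeR adjusted p = 0.0218) and had a log2 fold change of 0.45 ± 0.20 with both stimuli against isotype (0.163). The call with IL-33 held without IL-33 library 3 (0.0389) and was lost without IL-33 library 1 (0.0638), IL-33 library 2 (0.0543) or isotype library 1, 2 or 3 (0.0798, 0.112 and 0.0742), while the log2 fold change lay between 0.90 and 1.04. With all libraries of both groups kept, it held under the other scalings and filters and by DESeq2 and limma voom. The same was so with only the groups compared and with the replicate block. Traf2 (ENSMUSG00000026942, chromosome 2, 25517982 to 25546940, minus strand), the ubiquitin ligase adaptor of the same complex, stood at 60.4, 68.3 and 68.4 CPM with both stimuli, 65.1, 64.2 and 51.9 CPM with IL-33, 44.2, 41.7 and 50.8 CPM with anti-Siglec-F and 41.2, 54.3 and 40.4 CPM with isotype. All 3 libraries with both stimuli were above those with isotype, and the groups with IL-33 or anti-Siglec-F overlapped isotype. Its log2 fold change was 0.54 ± 0.16 with both stimuli against isotype (edgeR adjusted p = 0.0492), just inside the threshold, and 0.41 ± 0.16 with IL-33 against isotype (0.240). That call was lost without library 2 (0.105) or 3 (0.108) of the combined group and without isotype library 1 (0.175) or 3 (0.181).

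The 2 kinase genes differed in direction. Map3k8 (ENSMUSG00000024235) encodes TPL2, the kinase that p105 holds and that activates the ERK branch. It stood at 34.6, 3.20 and 23.6 CPM in libraries 1, 2 and 3 with both stimuli, 28.2, 24.2 and 10.5 CPM with IL-33, 3.08, 5.38 and 4.54 CPM with anti-Siglec-F and 3.33, 4.58 and 3.06 CPM with isotype. The IL-33 libraries were all above those without IL-33, and library 2 of the combined group, with 38 counts, lay within the isotype range and 10.8-fold below library 1. Against isotype, Map3k8 differed by a log2 fold change of 2.49 ± 0.62 (SE; edgeR adjusted p = 0.0228) with both stimuli and 2.52 ± 0.62 (0.0530) with IL-33. With both stimuli the call was lost without library 3 of the combined group (0.0574) or isotype library 1 (0.0964), 2 (0.0550) or 3 (0.1004). With IL-33 it passed without IL-33 library 3 (2.88, edgeR adjusted p = 0.0248) and in no other fit that left out 1 library. With all libraries kept, Map3k8 passed there by DESeq2 (adjusted p = 5.67e-04) and limma voom (adjusted p = 0.00113). It also passed with only the groups compared (edgeR adjusted p = 0.00931). It did not pass with DESeq2 size factors, upper-quartile scaling or the replicate block over all 12 libraries. Map3k14 (ENSMUSG00000020941, chromosome 11, 103219762 to 103267472, minus strand) encodes NIK, the kinase of the non-canonical branch, and was the only one of the 10 genes with a negative log2 fold change in each comparison of a group given IL-33 with isotype. Its levels were 43.8, 28.9 and 30.4 CPM with both stimuli, 40.1, 38.0 and 32.9 CPM with IL-33, 43.6, 48.4 and 61.9 CPM with anti-Siglec-F and 41.8, 43.6 and 48.9 CPM with isotype. All 3 IL-33 libraries were below the isotype libraries, but the log2 fold changes against isotype, -0.38 ± 0.19 with both stimuli (edgeR adjusted p = 0.212) and -0.27 ± 0.19 with IL-33 (0.631), did not pass. Without library 1 of the combined group Map3k14 was called lower with both stimuli than with isotype (-0.61, edgeR adjusted p = 0.0297) and than with anti-Siglec-F (-0.80, 0.0107).

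**Figure D2:**
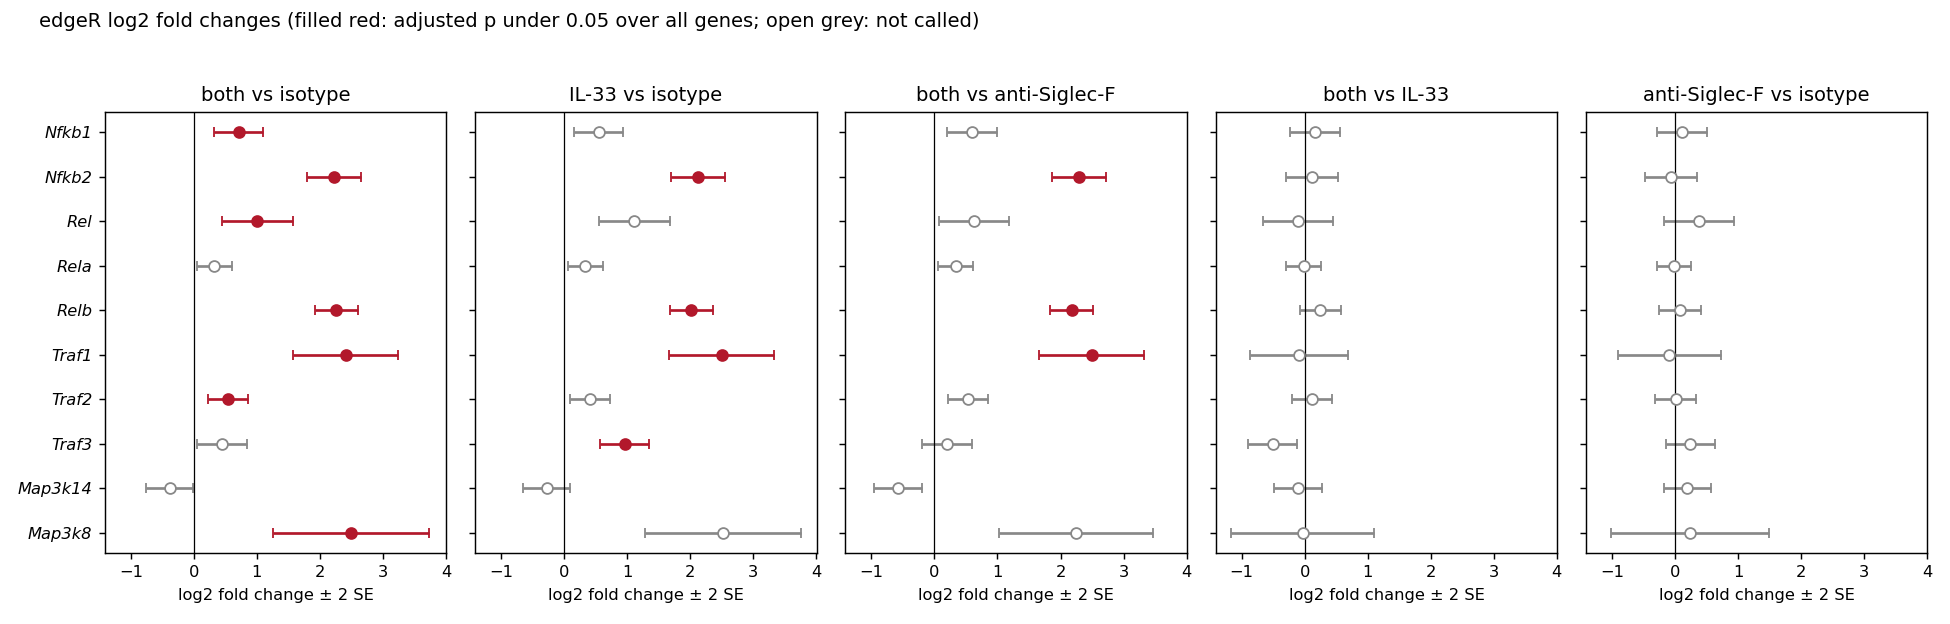
Log2 fold change of each of the 10 genes in the 5 pairwise comparisons, from the edgeR fit of all 12 libraries; bars span 2 SE on either side, and filled red points mark an adjusted p under 0.05. Nfkb2, Relb, Traf1 and Map3k8 lie above 2 in the 3 comparisons that differ by IL-33. Of these, Map3k8 is marked only for both stimuli against isotype. All 10 genes lie between -0.09 and 0.38 for anti-Siglec-F against isotype.

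Counted together, 4 of the 10 genes (Nfkb2, Relb, Traf1 and Traf3) were called higher and none lower with IL-33 than with isotype, where 1.46% of the 14547 tested genes were called higher, 0.749% lower and 2.21% in either direction. The median log2 fold change of the 10 genes was 1.03, against -0.01 over all tested genes. In 9 of the 10 genes the IL-33 and isotype libraries did not overlap, 8 of them with IL-33 higher, where 24.1% of all tested genes did not overlap and 11% with IL-33 higher. Same-numbered libraries of these groups were taken as pairs from the correlations of their deviations. The labels do not give this pairing, and correlations of differently numbered libraries were not computed. With the replicate number as a block the count was 5 over all 12 libraries, with Rel added (log2 fold change 1.07, edgeR adjusted p = 0.0338), where 2.5% of all tested genes were called. It was 7 in the blocked fit of these 2 groups alone, with Nfkb1 (0.0405), Rel (0.00277) and Map3k8 (4.97e-04) added, where 9.08% were called. Nfkb2, Relb and Traf1 kept their calls in the 6 fits that each left out 1 of the libraries compared.

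With both stimuli against isotype, 7 of the 10 genes (Nfkb1, Nfkb2, Rel, Relb, Traf1, Traf2 and Map3k8) were called higher and none lower, where 5.47% of the tested genes were called higher, 4.41% lower and 9.88% in either direction. The median log2 fold change of the 10 genes was 0.86, against -0.05 over all tested genes. The libraries did not overlap in 8 of the 10 genes, in each with both stimuli higher, where 27.2% of all genes did not overlap and 12% with both stimuli higher. This comparison and the one above share the isotype libraries. Without library 1 of the combined group, 5 of the 10 genes were called higher and 1 lower (Map3k14), where 9.9% of all tested genes were called higher and 9.19% lower. The count of genes called higher was 6 without library 2 and 4 without library 3 of that group, where 4.94% and 3.19% of all genes were, and none was called lower. It was 3, 4 and 3 without isotype library 1, 2 and 3, where 2.16%, 3.17% and 2.06% of all genes were called higher. Nfkb2, Relb and Traf1 were called in each of these 6 fits. Without libraries 2 and 3 of the combined group, where library 1 alone stood for that group and was taken to vary as the other groups do, 7 genes were again called higher, where 3.25% of all genes were. In that fit Traf3 was called (log2 fold change 0.96, edgeR adjusted p = 0.00925) and Traf2 was not (0.47, 0.275), while Rel was at 1.73 and Map3k8 at 3.29.

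With both stimuli against anti-Siglec-F alone, 3 of the 10 genes (Nfkb2, Relb and Traf1) were called higher and none lower, where 2.7% of tested genes were called higher, 1.72% lower and 4.42% in either direction. In this comparison, which asks what IL-33 changed in cells that also had the antibody, the libraries of 6 of the 10 genes did not overlap, all with both stimuli higher, where 22% of all genes did not overlap and 10% with both stimuli higher. Nfkb1 differed by a log2 fold change of 0.60 ± 0.20 (SE; edgeR adjusted p = 0.0981) and Map3k8 by one of 2.24 ± 0.61 (0.0551), and neither passed the test. Without library 1 of the combined group, Traf2 (0.0347) was added as higher and Map3k14 as lower, where 9.23% of all genes were called higher and 9.35% lower. Without library 2, 5 were called higher, with Nfkb1 (0.0385) and Map3k8 (0.00185) added, where 2.59% of all genes were. Without libraries 2 and 3 together it was 6, with Nfkb1 (0.0458), Rel (0.0109) and Map3k8 (0.00300) added, where 1.3% of all genes were called higher.

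Anti-Siglec-F alone against isotype left all 10 genes without a call. edgeR called 0 of the 10 and 0% of the 14547 tested genes. An unadjusted p under 0.05 was found for 0 of the 10 and for 370 of all tested genes. DESeq2 and limma voom called 0 of the 10 as well, and 0.0825% and 0.0687% of all tested genes. The log2 fold changes ran from -0.09 (Traf1) to 0.38 (Rel), with SE of 0.14 to 0.63. The interval of 2 SE on either side was -0.48 to 0.34 for Nfkb2 and -0.25 to 0.42 for Relb, and it was wide for Map3k8, at -1.01 to 1.49. In Nfkb1, Rel and Traf3 the libraries with anti-Siglec-F were all above those with isotype, 3 of 10 genes, where 6.73% of all genes did not overlap with the antibody higher and 13.2% in either direction.

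Both stimuli against IL-33, which asks what the antibody added in the presence of the cytokine, gave 0 called genes among the 10 and 0% over all tested genes by edgeR. The libraries overlapped in all 10 genes, where 14.1% of all genes did not overlap and 6.98% did not with both stimuli higher. Traf3, alone among the 10, had an unadjusted p under 0.05 (log2 fold change -0.51 ± 0.20, interval -0.90 to -0.12, edgeR adjusted p = 0.229), where 2526 of all 14547 tested genes had one. DESeq2 and limma voom called 0 of the 10, where they called 3.23% and 0% of all tested genes. The other 9 genes had log2 fold changes between -0.11 and 0.25. The interval was -0.30 to 0.52 for Nfkb2, -0.08 to 0.57 for Relb and -0.87 to 0.68 for Traf1. Without library 1 of the combined group Traf3 (-0.82, edgeR adjusted p = 0.0101) and Rel (-0.63, 0.0413) were called lower with both stimuli than with IL-33, where 6.55% of all tested genes were called lower and 7.3% higher. Without libraries 2 and 3 Rel was at 0.61 and none was called. All 9 tested markers of T cells, NK cells and ILC2 had a negative log2 fold change with both stimuli against IL-33 (median -0.90), none of them called, and IL-33 library 2 had the highest sum of these markers. Without that library Traf3 was at -0.52 (edgeR adjusted p = 0.276) and Rel at -0.11 (0.884). The interaction compares the change from adding the antibody in the presence and in the absence of the cytokine, and it gave 0 called genes among the 10 and 0% over all tested genes with edgeR. Traf3 alone of the 10 again had an unadjusted p under 0.05 (-0.76 ± 0.28, edgeR adjusted p = 0.583), where 1150 of all tested genes had one. For the interaction DESeq2 and limma voom called 0 of the 10, and 0.0206% and 0% of all tested genes.

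**Figure D3:**
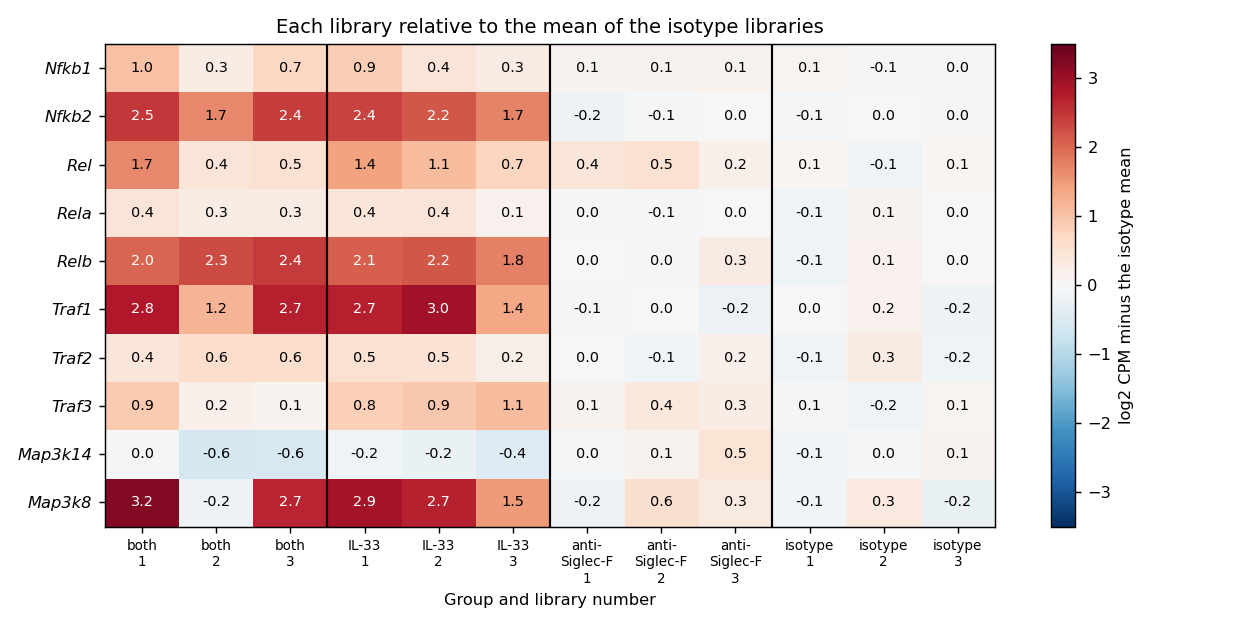
Log2 CPM of each gene in each library minus the mean of the 3 isotype libraries, with columns in the order both stimuli, IL-33, anti-Siglec-F and isotype (libraries 1 to 3 within each) and red for higher. In the combined group library 1 is high in Rel, Traf3 and Map3k8, where library 2 is closer to the isotype level, and all 3 libraries are high in Nfkb2 and Relb.

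Levels of different genes were set side by side per kilobase, as RPKM from the gene lengths in the authors' table. The order depends on those lengths, which were 3289 bases for Nfkb2 and 12061 for Nfkb1. In CPM, Nfkb1 had the highest mean of the 10 genes in every group. With both stimuli Nfkb1 averaged 684 CPM and Nfkb2 482, and with IL-33 they averaged 612 and 446. With both stimuli Nfkb2 was first of the 10 genes at 147 ± 40.0 RPKM (SD, n = 3) and did not overlap the next, Rela at 68.2 ± 5.03 RPKM. Relb (60.7 ± 8.55) and Nfkb1 (56.7 ± 14.7) followed and overlapped each other, and Relb overlapped Rela. With IL-33 the order began with Nfkb2 at 136 ± 28.5 RPKM and Rela at 68.9 ± 7.52 RPKM, which lay apart, and Relb (51.2 ± 7.32), Nfkb1 (50.7 ± 10.4) and Traf3 (42.2 ± 3.71) followed with overlaps between neighbours. With anti-Siglec-F Rela was first at 54.0 ± 2.30 RPKM, ahead of Nfkb1 at 37.5 ± 0.0812 and Nfkb2 at 29.8 ± 2.06, all apart. With isotype the order was likewise Rela at 54.5 ± 5.07, Nfkb1 at 34.7 ± 2.14 and Nfkb2 at 31.3 ± 1.13 RPKM, again apart. The lowest mean in every group was that of Map3k8, at 4.54 ± 3.53 RPKM with both stimuli, 4.66 ± 2.07 with IL-33, 0.962 ± 0.259 with anti-Siglec-F and 0.811 ± 0.180 with isotype. It overlapped the next lowest gene, Map3k14, with both stimuli (5.25 ± 1.25 RPKM) and with IL-33 (5.65 ± 0.567 RPKM).

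The makeup of the subunit transcripts was described as the share of each gene in the summed RPKM of the 5 subunit genes, a measure that does not depend on scaling between libraries. Nfkb2 and Relb together made up 54.9%, 56.8% and 62.6% in libraries 1, 2 and 3 with both stimuli, 56.2%, 57.2% and 54.5% with IL-33, 26.8%, 28.5% and 30.8% with anti-Siglec-F and 29.5%, 30.6% and 30.6% with isotype. The groups with IL-33 lay apart from those without it and overlapped each other. The mean share was 58.1% ± 4.01 with both stimuli, 56.0% ± 1.36 with IL-33, 28.7% ± 1.99 with anti-Siglec-F and 30.2% ± 0.629 with isotype (SD, n = 3 each). Against isotype the difference was 27.9 percentage points with both stimuli and 25.8 with IL-33, and against anti-Siglec-F it was 29.4 with both stimuli. In an exact two-sided permutation test each had p = 0.1, the smallest p that 3 libraries against 3 allow. Both stimuli and IL-33 differed by 2.08 points (exact permutation p = 0.6), and anti-Siglec-F and isotype by -1.54 points (exact permutation p = 0.4). The share of Rela was 19.4% ± 2.86 with both stimuli, 20.8% ± 1.70 with IL-33, 35.8% ± 1.33 with anti-Siglec-F and 37.4% ± 2.35 with isotype. The shares of the 5 genes sum to a fixed total in each library, and the CPM of Rela, given above, was higher in each library with IL-33 present than in each without it.

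**Figure D4:**
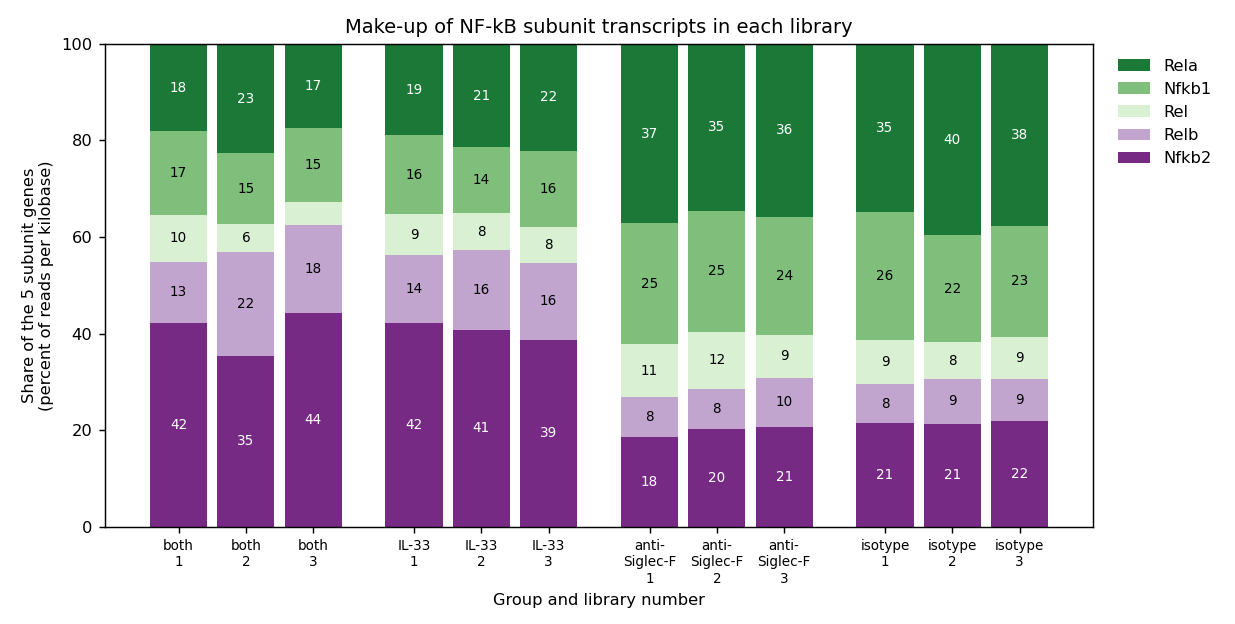
Share of each of the 5 NF-kB subunit genes in their summed RPKM, in percent, as stacked bars for the 12 libraries in the order both stimuli, IL-33, anti-Siglec-F and isotype. Nfkb2 and Relb together take 54.5% to 62.6% in the libraries with IL-33 present and 26.8% to 30.8% in the libraries without it.

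The rest of the pathway was read from 8 lists of genes by role. The IkB family, the inhibitors that hold NF-kB dimers, had 6 of 6 genes called higher with both stimuli than with isotype (median log2 fold change 1.41) and 5 of 6 with IL-33 (1.23), where 5.47% and 1.46% of all tested genes were called higher. With IL-33 all 6 had a positive log2 fold change and an unadjusted p under 0.05, where 1980 of the 14547 tested genes had such a p. Nfkbia, the classical inhibitor, averaged 721 ± 190 CPM with both stimuli, 573 ± 185 CPM with IL-33, 91.7 ± 1.95 CPM with anti-Siglec-F and 76.6 ± 5.43 CPM with isotype. The log2 fold changes for both stimuli and for IL-33, each against isotype, were 3.23 and 2.90 for Nfkbia, 2.92 and 2.83 for Nfkbiz, an IkB protein of the nucleus, and 1.63 and 1.44 for Nfkbie. Of the 10 genes for ubiquitin editing and mRNA decay, which restrain the pathway, 5 were called higher with both stimuli and 3 with IL-33 than with isotype. Those with IL-33 were Tnip1 (1.97), Zc3h12a (1.95) and Tnfaip3 (1.62), of which Tnfaip3 encodes the enzyme A20, and with both stimuli they had 1.90, 1.93 and 1.40.

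Among 12 other TRAF genes and TRAF partners, 2 were called higher and 1 lower with both stimuli than with isotype, and 2 higher with IL-33. Ikbke, an IKK-related kinase, had log2 fold changes of 2.77 with both stimuli and 2.35 with IL-33, and Birc3, a ubiquitin ligase of the TRAF2 and TRAF3 complex, had 0.69 and 0.86. Traf3ip3 was lower with both stimuli (-0.83). Of 7 tested TNF family ligand genes out of 13 listed, 2 were higher with both stimuli (Tnf at 3.53 and Ltb at 1.29) and 1 with IL-33 (Tnf at 2.68). The TNF receptor family genes that signal through TRAFs had 1 of 12 tested called higher with both stimuli (Tnfrsf1b at 0.97) and 0 with IL-33, where 2 of 12 had an unadjusted p under 0.05. The 12 genes of the IKK complex, the TAK1 complex and the MyD88 relay had 1 called with both stimuli (Irak2 at 1.11) and 0 with IL-33, where 1 had an unadjusted p under 0.05. The 10 genes around TPL2 and ERK had 0 calls in both comparisons, with 2 at an unadjusted p under 0.05 with both stimuli and 1 with IL-33. The 6 genes of the ligase that marks IkB and the precursors had 0 calls as well, with 2 and 0 at an unadjusted p under 0.05. Of all 14547 tested genes, 3860 had an unadjusted p under 0.05 with both stimuli and 1980 with IL-33, each against isotype. For anti-Siglec-F against isotype edgeR called 0 genes of these 8 lists. There 1 gene of the IkB family and 1 of the ligands had an unadjusted p under 0.05, where 370 of all tested genes had one.

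**Figure D5:**
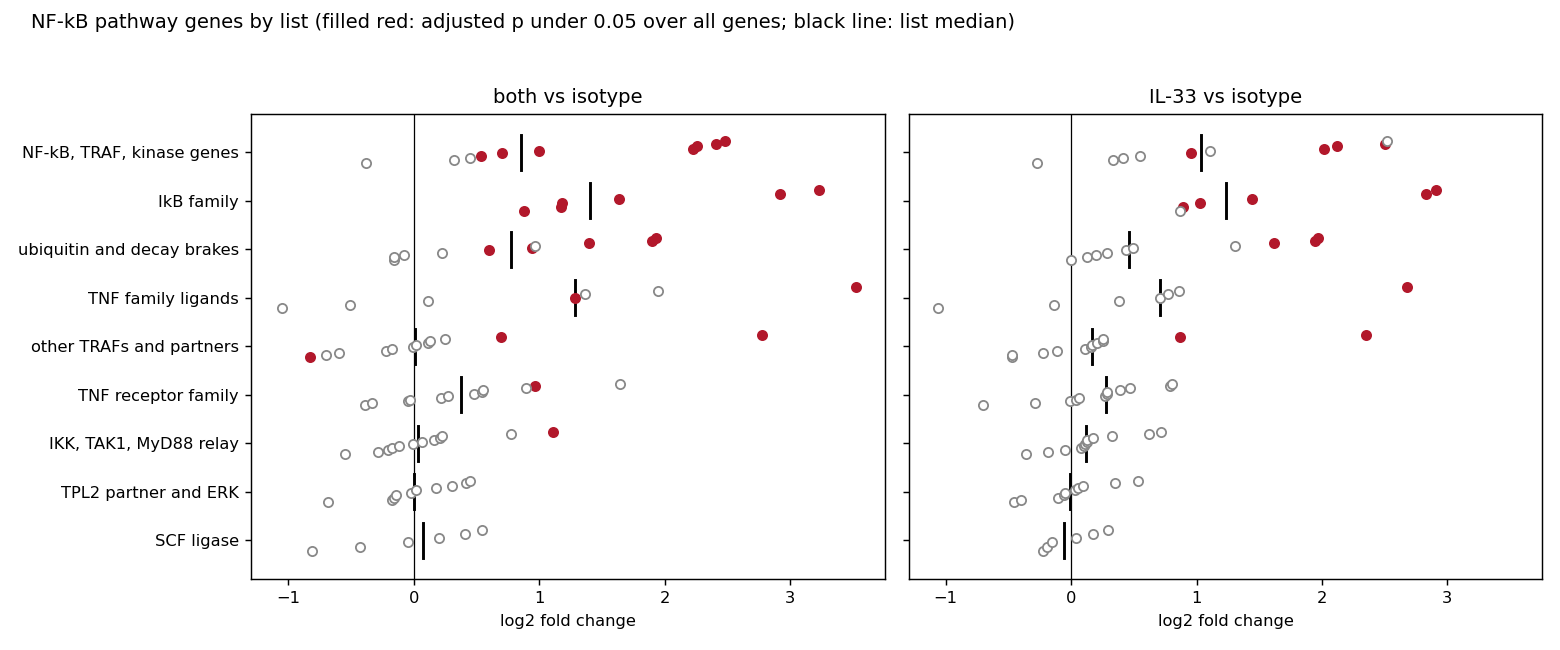
Log2 fold change of each tested gene in 9 lists (the 10 NF-kB, TRAF and kinase genes and 8 pathway lists), for both stimuli against isotype and IL-33 against isotype; filled points mark an edgeR adjusted p under 0.05 and short bars the list median. The IkB family has the highest median, 1.41 with both stimuli and 1.23 with IL-33, and the lists of TPL2 and ERK genes and of the ligase genes have no called gene.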

How the data were processed

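The authors deposited a table of raw read counts (whole numbers) and gene lengths for 54532 genes in 12 libraries. The submitters' processing notes name the build mm10 and the tools featureCounts 1.5.0-p3, STAR 2.6.1d, fastp, DESeq2 and FastQC 0.11.8, with no roles. Annotation release and strand setting were not given in the sources used here. A table of normalized counts was not used here. Total counts ran from 11686603 to 17137988 per library, and their number limits the precision of low genes such as Map3k8.

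All 12 libraries entered 1 fit of group means in edgeR 4.0.16 (R 4.3.3), using TMM factors, filterByExpr with the groups, which left 14547 genes, and the quasi-likelihood F test without a replicate block. Benjamini-Hochberg adjustment ran over all tested genes and a gene was called at an adjusted p under 0.05. The SE is the absolute log2 fold change over the root of F. CPM use the TMM factors, and RPKM divide them by the authors' gene length. The script was tested on simulated data. No library was a copy of another.

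The 10 genes, the pathway lists and the marker lists were chosen with earlier results of these data known. All 10 genes are named in each comparison, and up to 3 called genes of each pathway list with the largest change in each comparison with isotype. For each of the 10 genes called at least once, the 3 most alike genes are named as well.

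Alternatives were other scalings (DESeq2 size factors, upper quartile), no filter or at least 5 CPM in 6 libraries, DESeq2 1.42.0, limma 3.58.1 voom with quality weights, only the groups compared, the replicate number as a block, leaving out each library in turn, and leaving out libraries 2 and 3 of the combined group. Correlations of the deviations of same-numbered libraries from their group means over 9178 genes were 0.31, 0.43 and 0.25 for IL-33 and isotype, all over 0.1, so those numbers were taken as pairing the libraries, a reading from the data and not from the labels.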

Additional observations from a re-analysis of the deposited data

How the results depend on the processing

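Nfkb2, Relb and Traf1 were called under every alternative run in the 3 comparisons that differ by IL-33. Counts of called NF-kB, TRAF and kinase genes follow, each with the share of all tested genes called in the same fit in brackets. For IL-33 against isotype the count was 4 (2.21%), and 9 by limma voom (14.4%). DESeq2 (5.54%), no filter (1.91%), the strict filter (4.36%) and only the groups compared (3.41%) each gave 6. DESeq2 size factors (2.17%) and upper-quartile scaling (2.3%) each gave 4, and the replicate block over all 12 libraries gave 5 (2.5%). It was 7 with the replicate block in the fit of those groups alone (9.08%). When 1 library was left out it was 3 to 6 (0.76% to 3.2%). For both stimuli against isotype it was 7 (9.88%), and 4 by limma voom (9.8%). With only the groups compared it was 3 (5.5%), and 3 with the replicate block there (6.83%). It ran from 3 to 6 with 1 library left out (3.38% to 19.1%). For both stimuli against anti-Siglec-F it was 3 (4.42%), 5 with the strict filter (9.09%) and 6 by DESeq2 (11.2%). Leaving out 1 library gave 3 to 5 (0.816% to 18.6%). For both stimuli against IL-33 it was 0 (0%) and, with 1 library left out, 0 to 2 (0% to 13.8%). The cause of these changes was not tested. Over all genes, the calls for IL-33 against isotype numbered 322, 116 to 488 with 1 library left out and 315 to 2089 otherwise. For both stimuli they numbered 1437 against isotype (515 to 2916; 651 to 2404), 643 against anti-Siglec-F (124 to 2839; 220 to 1627) and 0 against IL-33 (0 to 2116; 0 to 786). They numbered 0 for anti-Siglec-F against isotype (0; 0 to 70) and 0 for the interaction (0 to 4; 0 to 86).

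As a share of raw reads and not per kilobase, the difference in the Nfkb2 and Relb share was 20.5 points with IL-33 against isotype, and with both stimuli 22.1 against isotype and 23.5 against anti-Siglec-F. When libraries 2 and 3 were left out of the combined group, it was 24.7 against isotype, 26.2 against anti-Siglec-F and -1.12 against IL-33. With 1 library left out, both stimuli against IL-33 ran from -0.16 to 3.68.

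The log2 fold changes that changed sign had no call in the fit of all 12 libraries, although Rel against IL-33 and Map3k14 against isotype were called lower with both stimuli without library 1 of the combined group. For anti-Siglec-F against isotype, Traf2 was -0.010 with upper-quartile scaling, Rela 0.0010 without a filter and Traf1 0.0093 by limma voom. With 1 library left out there, Rela ran from -0.072 to 0.052, Relb from -0.023 to 0.16, Traf1 from -0.15 to 0.00082 and Traf2 from -0.067 to 0.16. For both stimuli against IL-33, limma voom gave -0.091 for Nfkb1 and -0.14 for Nfkb2, and the fit without libraries 2 and 3 gave 0.61 for Rel, 0.14 for Rela, 0.34 for Traf1, 0.28 for Map3k14 and 0.76 for Map3k8. With 1 library left out, Nfkb1 ran from -0.048 to 0.34, Nfkb2 from -0.061 to 0.32, Rel from -0.63 to 0.11, Rela from -0.12 to 0.038, Traf1 from -0.46 to 0.27 and Map3k8 from -0.64 to 0.47. Against anti-Siglec-F, Traf3 ran from -0.11 to 0.34, and against isotype Map3k14 was 0.020 without libraries 2 and 3. For the interaction, limma voom gave -0.21 for Nfkb1 and -0.019 for Nfkb2, and the fit without libraries 2 and 3 gave 0.23 for Rel, 0.15 for Rela, -0.030 for Relb, 0.42 for Traf1, 0.081 for Map3k14 and 0.51 for Map3k8. With 1 library left out there, Nfkb1 ran from -0.16 to 0.23, Nfkb2 from -0.00017 to 0.39, Rela from -0.12 to 0.049, Traf1 from -0.39 to 0.35, Traf2 from -0.047 to 0.18 and Map3k8 from -0.89 to 0.23.

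In the other comparisons the correlations of same-numbered libraries were not all over 0.1, so the numbers were not taken as pairing there. These correlations ran from -0.30 to 0.48 for both stimuli with isotype, -0.39 to 0.21 with IL-33 and -0.02 to 0.46 with anti-Siglec-F. For anti-Siglec-F with isotype they ran from -0.13 to 0.43. The labels do not say whether these libraries were paired, and missing the 0.1 threshold does not show that they were not. With the replicate block over all 12 libraries, 6 of the NF-kB, TRAF and kinase genes were called for both stimuli against isotype (10% of all tested genes). The count was 3 against anti-Siglec-F (4.41%) and 0 against IL-33 (0%). It was 0 for anti-Siglec-F against isotype (0%), and the interaction of Traf1 was 0.040. DESeq2 size factors and upper-quartile scaling shifted the log2 fold changes of all tested genes, by a median over genes of -0.037 to 0.036 across the comparisons.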

Other observations

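Genes whose pattern over the 12 libraries was most like that of a called NF-kB, TRAF or kinase gene were found from the root mean square difference of mean-centred log2 CPM, among the 8648 candidates, tested genes that averaged 5 CPM or more. These are descriptions over libraries that share 4 groups. For Nfkb2, whose own root mean square deviation was 1.11, the nearest were Slc2a6 (difference 0.18), Ntng2 (0.21) and Agpat5 (0.22). For Relb, with 1.06 of its own, they were Zc3h12a (0.20), Slc2a6 (0.21) and Agpat5 (0.23), so Slc2a6 and Agpat5 stood in both lists. For Traf1 (1.28) they were Nfkbiz (0.31), Ikbke (0.33) and Tpbg (0.37), and for Map3k8 (1.32) they were Ikbke (0.48), Nfkbiz (0.56) and Ccrl2 (0.57). For the genes that varied less, the nearest were Rapgef1, Cflar and Tbl1x for Rel (0.18 each, own 0.54), N4bp1, Fyb and Zfp275 for Traf3 (0.15 to 0.16, own 0.41), Adam17, Tm9sf4 and Rabgef1 for Nfkb1 (0.09 each, own 0.34) and Kmt5a, Vasp and Psmd11 for Traf2 (0.10 to 0.11, own 0.28).

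Ikbke and Spic, like Traf1 and Map3k8, were low in library 2 of the combined group and in library 3 of the IL-33 group. Spic stood at 17.2, 5.30 and 26.2 CPM in libraries 1, 2 and 3 with both stimuli and at 21.7, 14.6 and 4.12 CPM with IL-33. Ikbke stood at 58.9, 12.95 and 56.6 CPM with both stimuli and at 44.7, 37.5 and 13.6 CPM with IL-33. These genes were singled out after their values were seen.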
